A study of Mus musculus with 6 samples.

Results

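The genes of sterol and fatty acid synthesis were compared between colitis mice given berberine (BBR) and colitis mice given sulfasalazine (SASP). The set holds 32 named genes of the 18268 genes in the expression table: 7 enzymes of the mevalonate pathway, 11 enzymes from squalene to cholesterol, 5 genes of the sterol regulatory element binding proteins (SREBPs) and their control, 8 genes of fatty acid synthesis and 1 sterol transport gene. The members were named by their known function and not by a threshold on their values, and all 32 were found by gene symbol.

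All mice were male C57BL/6 animals of 8 to 10 weeks that received dextran sulfate sodium (DSS), a polymer that damages the colon lining, in drinking water for 7 days. The BBR group (3 mice) received berberine, a plant alkaloid, by gavage for 6 days at 100 mg/kg, and the SASP group (3 mice) received sulfasalazine, an anti-inflammatory drug used in ulcerative colitis, for 6 days at 200 mg/kg. Bulk RNA of the colorectum was sequenced, and each gene's level was given as FPKM, in which fragments are divided by transcript length and by the size of the library, so that levels can be compared between genes per length. No untreated or DSS-only sample was analysed here, so every difference is between the drugs. The labels give colorectum for all 6 samples, while the study's text speaks of rectal samples for BBR and colon samples for SASP, and a difference in the sampled site cannot be told apart from the drug.

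Cells make cholesterol from acetyl-CoA through mevalonate, isoprenoid units, squalene and lanosterol, and they make fatty acids from the same acetyl-CoA through malonyl-CoA. Both branches are induced by SREBPs, membrane-bound transcription factors that SCAP carries from the endoplasmic reticulum to the Golgi for cleavage when sterols are low, while INSIG proteins hold them back when sterols are high. SREBP2 acts mainly on sterol genes and SREBP1 mainly on fatty acid genes, and colon epithelial cells make both kinds of lipid.

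The promoters of 3 members are shown because SREBPs act there. Hmgcs1 was the 1 of the 26 members searched with an exact match to the core of the sterol response element. Srebf2 and Elovl6 were taken as genes whose 2 groups did not overlap. Each run is the 250 bases before a RefSeq start in GRCm38.p6, read 5′ to 3′ on the plus strand. Capitals mark the sterol element core (TCACNCCAC) and the NF-Y box (CCAAT, here on the other strand as ATTGG).
Hmgcs1, chr13:119690101-119690350: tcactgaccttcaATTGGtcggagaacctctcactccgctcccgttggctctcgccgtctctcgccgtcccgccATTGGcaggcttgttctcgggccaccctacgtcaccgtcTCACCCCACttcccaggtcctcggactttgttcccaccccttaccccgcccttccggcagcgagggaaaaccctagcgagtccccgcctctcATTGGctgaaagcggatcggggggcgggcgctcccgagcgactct
Srebf2, chr15:82147019-82147268: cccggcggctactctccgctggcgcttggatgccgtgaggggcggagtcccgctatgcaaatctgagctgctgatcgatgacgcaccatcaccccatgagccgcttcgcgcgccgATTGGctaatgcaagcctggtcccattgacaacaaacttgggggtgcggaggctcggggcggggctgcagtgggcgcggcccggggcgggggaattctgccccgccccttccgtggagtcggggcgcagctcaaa
Elovl6, chr3:129532136-129532385: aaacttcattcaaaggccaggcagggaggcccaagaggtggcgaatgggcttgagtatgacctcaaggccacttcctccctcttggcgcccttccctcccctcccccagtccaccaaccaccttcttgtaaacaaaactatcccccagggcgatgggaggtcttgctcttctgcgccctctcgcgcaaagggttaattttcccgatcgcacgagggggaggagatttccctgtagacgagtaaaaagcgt

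In the Hmgcs1 promoter, the sterol core began 137 bases before the start, between NF-Y boxes that began 237, 176 and 45 bases before it. Srebf2 held 1 NF-Y box, 135 bases before its start, and no exact match to the sterol core. Its run does hold the letters tcaccccat, which differ from the core only in the last base. The search allowed no mismatch, so such near matches were neither marked nor counted in any gene. Elovl6 held no exact match to either motif in these bases. Of the 32 members, 26 had a RefSeq promoter of 300 bases (250 before and 50 after the start) under the same symbol and gene ID, with 1.35 starts a member against 1.28 for the 9614 tested genes with a promoter. Searched on both strands, CCAAT was in 22 of the 26 (84.6%) and in 43.1% of those 9614 genes. The E-box CACGTG was in 5 (19.2%, against 11.8%), and TCACNCCAC in 1 (3.85%, against 1.39%). The longer form of the sterol element, which adds an A before that core and has C at its open position, was in 0 of the 26 and in 0.0728% of the tested genes. A match is only a run of letters within this window, and no binding was measured.

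The whole module was well expressed in both groups and differed little between the drugs. All 32 members were above 1 FPKM in all 6 mice, with 2.01 FPKM of Me1 in SASP mouse 1 as the lowest value, so all passed the filter on low values. In a limma fit over all genes, 1 of the 32 members, Elovl6, was higher in BBR at an adjusted p under 0.05, and 0 were lower. Of the 12072 genes tested, 8.86% passed the same threshold (3.82% higher and 5.04% lower). At an unadjusted p of at most 0.05 there were 7 members (21.9%), 4 higher and 3 lower, against 31.8% of all genes tested.

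The differences of the members, on the log2(FPKM + 1) scale as BBR minus SASP, ran from -0.73 for Pmvk to 1.01 for Elovl6. Their median was -0.05, beside 0.10 for all genes tested. With median-ratio scaling in place of FPKM as given, these medians were -0.18 and -0.02, so that the members lay 0.15 and 0.16 below the middle of all genes under the respective scalings. Relative to that middle, 11 members were above and 21 below (10 and 22 with the other scaling). Over the alternatives tried, these counts ran from 9 above and 23 below (without BBR mouse 2) to 18 above and 14 below (with a score of epithelial markers as covariate). A total of 28 members differed by less than 0.5 in either direction, and for 27 of 32 the 95% interval of the difference lay between -1 and 1, that is, within a doubling on this scale.

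The groups did not overlap in 5 members, of which Dhcr7, Srebf2 and Elovl6 were above SASP in all BBR mice and Pmvk and Nsdhl were below. Over all genes tested, 37.9% had groups without overlap, 21.3% with BBR above and 16.6% with BBR below. In the other 27 members at least 1 BBR mouse lay within or at the edge of the SASP range, or the reverse.

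**Figure D1:**
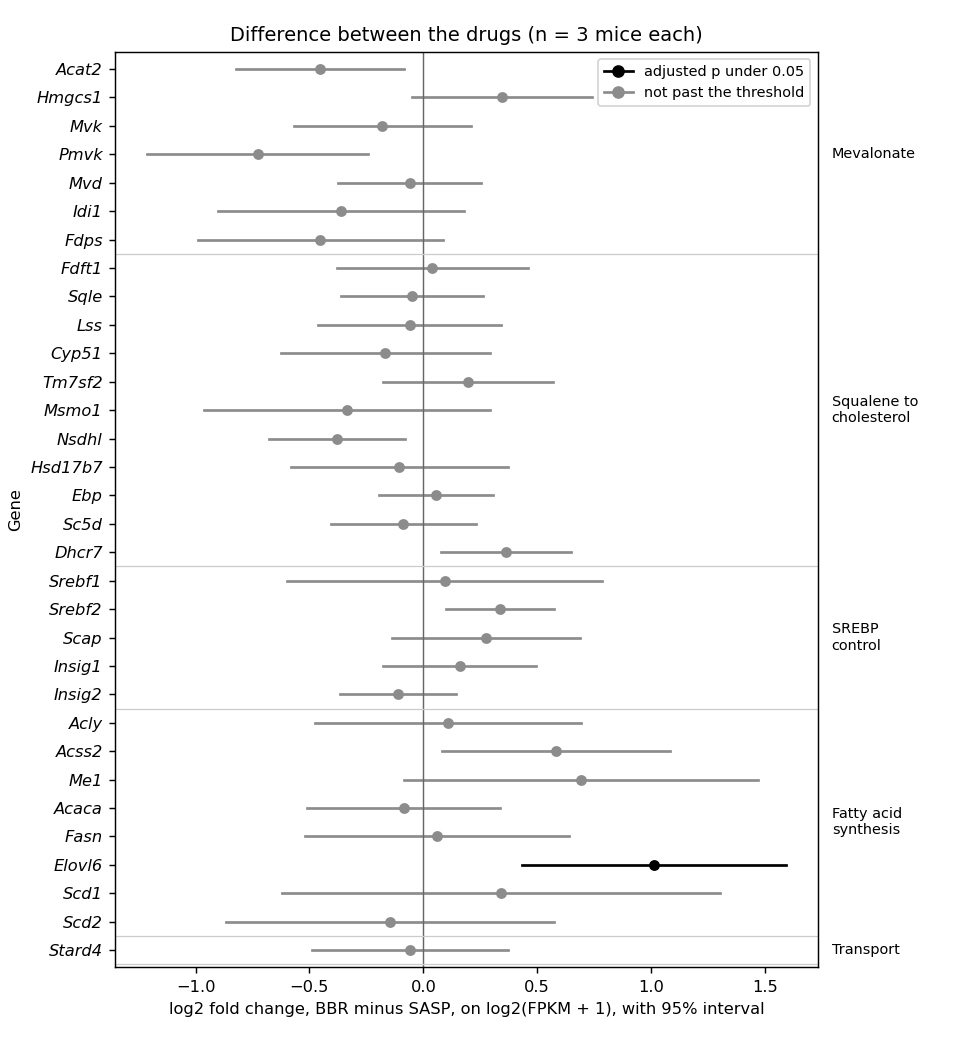
Difference of each of the 32 genes between the drugs on the log2(FPKM + 1) scale (BBR minus SASP, x axis), with 95% intervals as bars and genes grouped by role on the y axis. Only Elovl6 (1.01) passed the adjusted threshold, and 25 of the 32 intervals include 0.

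Over all genes tested, 60.8% of differences were positive, with a median of 0.10. Mevalonate pathway genes had negative differences in 6 of 7 cases, with a median of -0.36 and 0 called. Hmgcs1, the cytosolic HMG-CoA synthase, was the exception: it stood at 107.45, 121.65 and 159.63 FPKM in BBR mice 1 to 3 and at 100.08, 90.33 and 112.16 in SASP mice 1 to 3. Only BBR mouse 1 fell inside the SASP range, and the log2 difference was 0.34 (SE 0.17, adjusted p = 0.201, limma). Pmvk, the phosphomevalonate kinase, stood at 14.49, 16.48 and 18.88 FPKM in BBR and at 33.81, 20.33 and 31.84 in SASP. Every BBR mouse was below every SASP mouse, but SASP mouse 2 lay close to the BBR values, and the log2 difference of -0.73 (SE 0.21) did not pass the threshold (adjusted p = 0.0682).

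Acat2, the cytosolic thiolase that joins acetyl-CoA units, stood at 11.55, 16.28 and 12.19 FPKM in BBR and at 19.97, 16.28 and 19.30 in SASP. The groups touched, since mouse 2 of both had the same value (log2 difference -0.45, SE 0.16, adjusted p = 0.102). Fdps, the farnesyl diphosphate synthase, stood at 46.37, 68.53 and 73.36 FPKM in BBR and at 100.98, 64.64 and 92.59 in SASP. Its groups overlapped through SASP mouse 2 (log2 difference -0.45, SE 0.23, adjusted p = 0.216). Idi1, the isopentenyl diphosphate isomerase, stood at 8.78, 17.31 and 14.90 FPKM in BBR and at 16.99, 16.40 and 18.26 in SASP, with BBR mouse 1 far below the rest (log2 difference -0.36). The mevalonate kinase Mvk and the decarboxylase Mvd had log2 differences of -0.18 and -0.06. BBR mouse 1 was the lowest of the 6 mice in 6 of these 7 genes, and SASP mouse 1 was the highest in 4.

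From squalene to cholesterol, 11 enzymes had a median difference of -0.06, with 4 positive and 7 negative values and 0 called. Dhcr7, the reductase of the last step of cholesterol synthesis, stood at 46.20, 53.25 and 44.29 FPKM in BBR and at 33.72, 41.39 and 35.95 in SASP. Every BBR mouse was above every SASP mouse, and the log2 difference was 0.36 (SE 0.12, adjusted p = 0.0946). Nsdhl, a dehydrogenase that takes part in removing the C4 methyl groups of the sterol ring, had the opposite order, with 12.74, 15.73 and 13.82 FPKM in BBR and 20.59, 16.72 and 18.58 in SASP (log2 difference -0.38, SE 0.13, adjusted p = 0.0958). Both genes were thus ordered by group, in opposite directions, without passing the threshold.

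Msmo1, the sterol C4-methyl oxidase, was the second most abundant member by its mean over 6 mice (144 FPKM), and its BBR mice were divided. It stood at 97.44, 99.47 and 197.15 FPKM in BBR and at 153.55, 157.42 and 159.07 in SASP, so that 2 BBR mice were below all SASP mice and the other BBR mouse was above them. The log2 difference was -0.33 (SE 0.27, adjusted p = 0.409, limma). Without BBR mouse 3, the mouse above all SASP mice, it was -0.66 and passed the threshold, in a fit that called 33.8% of all genes tested.

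The first committed enzymes of the sterol branch were close in the 2 groups. Squalene synthase Fdft1 stood at 37.37, 45.73 and 60.94 FPKM in BBR and at 47.47, 42.42 and 47.70 in SASP (log2 difference 0.04). The squalene epoxidase Sqle, a rate-controlling enzyme of the branch, stood at 42.61, 51.65 and 55.80 in BBR and at 52.10, 46.73 and 55.97 in SASP (log2 difference -0.05, 95% interval -0.36 to 0.26). In both genes the BBR mice spanned most of the SASP range or more. The lanosterol synthase Lss had a log2 difference of -0.06 and the lanosterol 14-alpha-demethylase Cyp51 one of -0.17. The remaining enzymes, Tm7sf2, Hsd17b7, Ebp and Sc5d, differed by 0.20, -0.11, 0.06 and -0.09. Sc5d was the steadiest member in BBR, with 60.09, 58.45 and 60.09 FPKM.

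**Figure D2:**
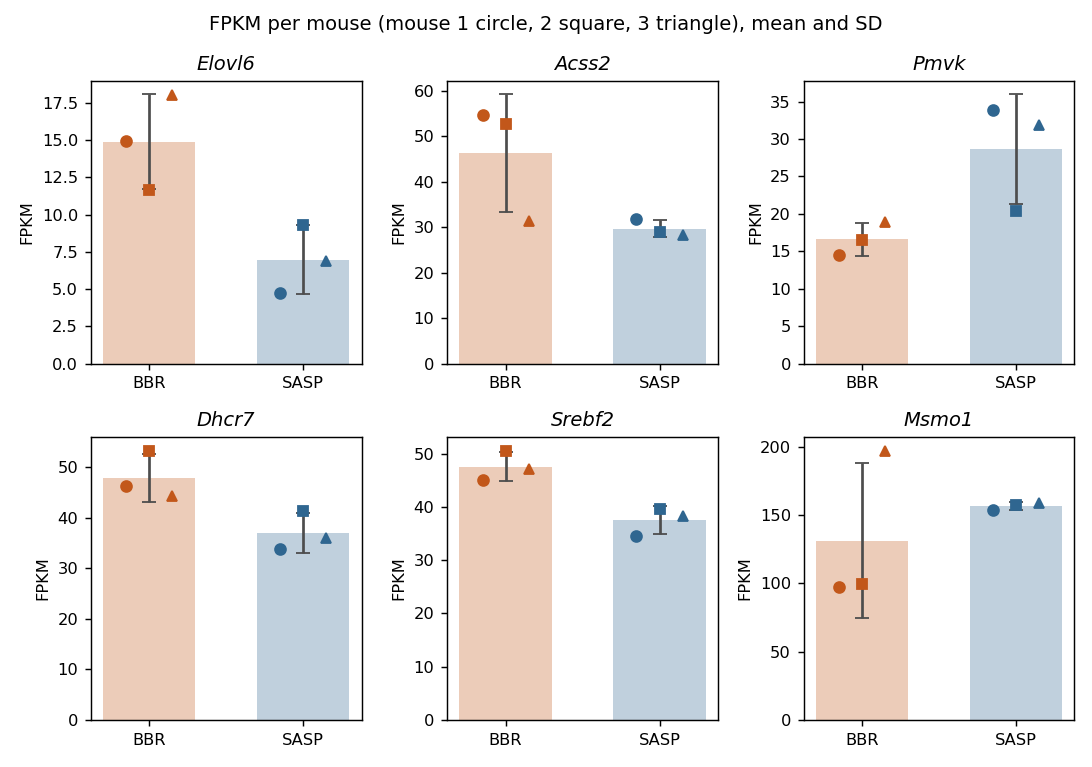
FPKM of 6 members (y axes, each from 0) in the BBR and SASP groups (x axis), with 1 point a mouse, bars for the mean of 3 mice and error bars for the SD. Elovl6, Dhcr7 and Srebf2 have all BBR mice above all SASP mice and Pmvk has all below, while in Msmo1 and Acss2 BBR mouse 3 stands apart from the other 2.

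Among the regulators, Srebf2, which encodes SREBP2, stood at 45.11, 50.57 and 47.11 FPKM in BBR and at 34.60, 39.67 and 38.31 in SASP. All BBR mice were above all SASP mice, with means of 47.6 ± 2.76 and 37.5 ± 2.62 FPKM (SD, n = 3 each). The log2 difference was 0.34 (SE 0.10), with an adjusted p of 0.0760. Srebf1, which encodes SREBP1 (its 1a and 1c forms are summed in one gene value), stood at 17.22, 26.35 and 10.48 FPKM in BBR and at 17.45, 15.20 and 14.75 in SASP. BBR mice were both the highest and the lowest of the 6 (log2 difference 0.09). Srebf2 was above Srebf1 in every mouse, by 1.92-fold to 4.50-fold in BBR and by 1.98-fold to 2.61-fold in SASP.

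Scap, which escorts the SREBPs, stood at 16.89, 18.68 and 11.81 FPKM in BBR and at 12.01, 13.71 and 12.29 in SASP. BBR mice 1 and 2 were above all SASP mice and BBR mouse 3 was below them (log2 difference 0.28, SE 0.17, adjusted p = 0.307). Insig1, itself an SREBP target, stood at 73.96, 72.85 and 84.86 FPKM in BBR and at 83.05, 65.05 and 60.46 in SASP (log2 difference 0.16), and Insig2 differed by -0.11. The ratio of Insig1 to Insig2 was 4.11 ± 0.10 in BBR and 3.43 ± 0.71 in SASP (SD, n = 3 each), with SASP mouse 1 at 4.21 inside the BBR range.

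In fatty acid synthesis, 6 of 8 differences were positive, with a median of 0.23, where 60.8% of all genes tested were positive with a median of 0.10. Elovl6, the elongase that lengthens palmitate to stearate, stood at 14.95, 11.65 and 18.01 FPKM in BBR and at 4.74, 9.30 and 6.92 in SASP. All BBR mice were above all SASP mice, with means of 14.9 ± 3.18 and 6.99 ± 2.28 FPKM (SD, n = 3 each), a 2.13-fold ratio of means. The log2 difference was 1.01 (SE 0.25, 95% interval 0.43 to 1.59) and its adjusted p was 0.0499. By p, Elovl6 ranked 1069th of the 1069 genes called, so it was the last gene past the threshold. Over the alternatives tried, its difference was positive each time, between 0.31 and 1.22, while its adjusted p ran from 0.000647 to 0.454 and passed the threshold in 2 of 16, with array quality weights and without BBR mouse 3. These fits called 21 and 7 of the 32 members, where they called 59.0% and 33.8% of all genes tested. With median-ratio scaling, which called 13.9% of all genes, Elovl6 was not called and Acat2 and Nsdhl were lower.

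The 2 genes that supply cytosolic acetyl-CoA differed in their spread. Acss2, the acetyl-CoA synthetase that uses acetate, stood at 54.65, 52.80 and 31.38 FPKM in BBR and at 31.85, 29.00 and 28.34 in SASP. BBR mice 1 and 2 were well above the SASP mice and BBR mouse 3 fell inside their range (log2 difference 0.58, SE 0.21, adjusted p = 0.116). Acly, the ATP citrate lyase, stood at 107.49, 111.34 and 60.57 FPKM in BBR and at 70.29, 87.30 and 93.93 in SASP, again with BBR mice 1 and 2 above and BBR mouse 3 below the SASP mice (log2 difference 0.11, adjusted p = 0.780).

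Me1, the malic enzyme that supplies NADPH, was the lowest member, with 2.54, 7.41 and 6.10 FPKM in BBR and 2.01, 3.06 and 3.10 in SASP. The groups overlapped through BBR mouse 1 (log2 difference 0.69, SE 0.33, adjusted p = 0.194). The core enzymes of the pathway did not separate the groups. Fasn, the fatty acid synthase, stood at 13.57, 21.63 and 10.96 FPKM in BBR and at 12.26, 16.98 and 13.61 in SASP (log2 difference 0.06, 95% interval -0.52 to 0.64), and the acetyl-CoA carboxylase Acaca differed by -0.09 (95% interval -0.51 to 0.34).

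Of the stearoyl-CoA desaturases, which place the first double bond, Scd2 was the most abundant of all 32 members, with a mean over 6 mice of 228 FPKM. It stood at 224.71, 308.91 and 130.98 FPKM in BBR and at 279.15, 216.45 and 204.86 in SASP (log2 difference -0.15). Scd1 stood at 7.54, 22.94 and 8.67 FPKM in BBR and at 12.49, 6.93 and 8.09 in SASP (log2 difference 0.34). Both desaturases were highest in BBR mouse 2. Scd2 exceeded Scd1 by 13.5-fold to 31.2-fold over the 6 mice, although reads shared by these similar genes can be divided between them in the estimate. Stard4, a sterol carrier of the cytosol and the one transport member, stood at 44.84, 43.31 and 28.18 FPKM in BBR and at 42.15, 38.22 and 38.41 in SASP (log2 difference -0.06).

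**Figure D3:**
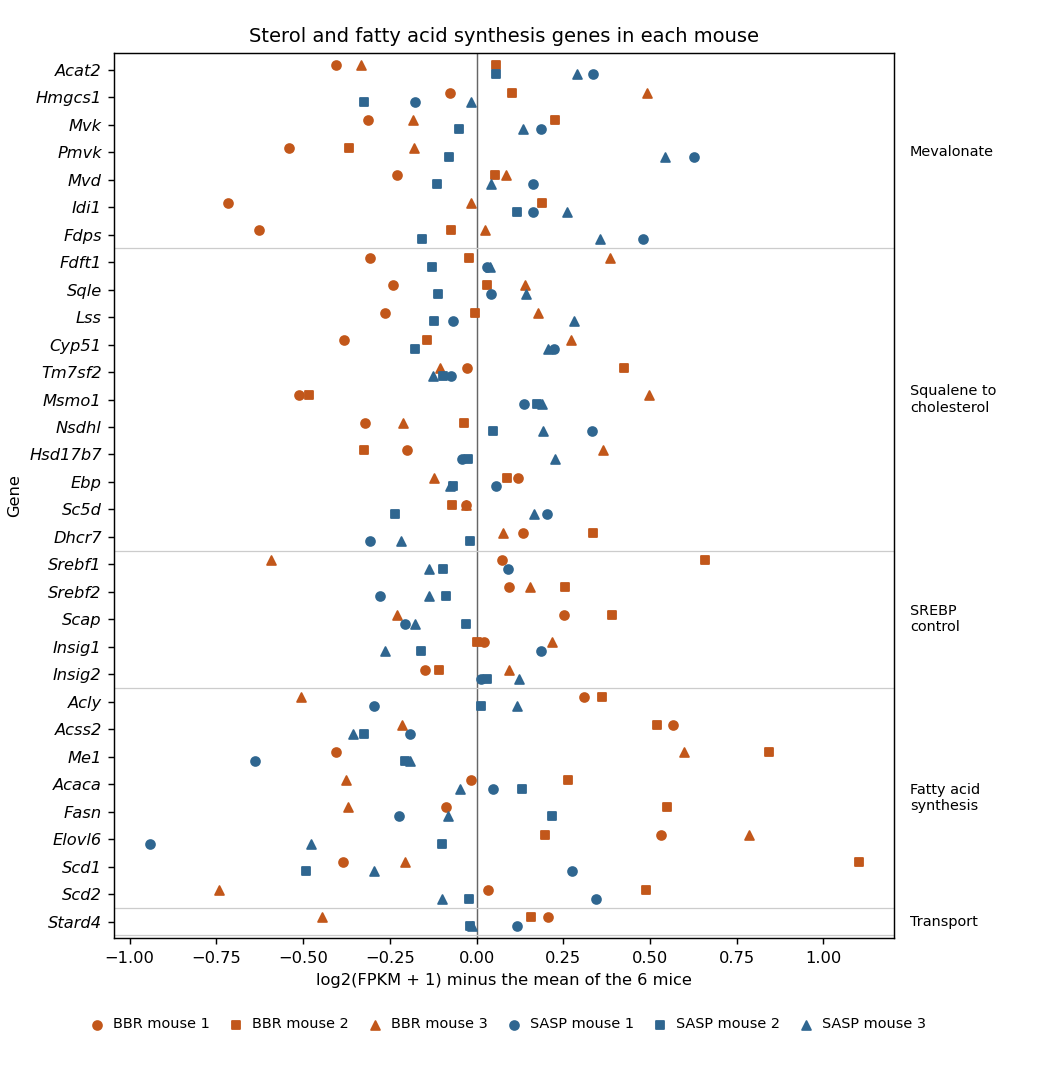
Each of the 32 genes (y axis, grouped by role) in each of the 6 mice, as log2(FPKM + 1) minus that gene's mean over the 6 mice (x axis); colour gives the drug and shape the mouse. BBR points spread more widely than SASP points in most genes, and BBR mouse 3 lies to the right in several sterol enzymes and to the left in several fatty acid genes.

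The BBR mice differed from each other more than the SASP mice did. The coefficient of variation was larger in BBR for 25 of 32 members, with a median of 22.5% in BBR and 10.5% in SASP. The same share over all genes was not computed, so the wider spread cannot be called particular to these members. The place of BBR mouse 3 differed between the roles, and its place over all genes was not computed. BBR mouse 3 was above both other BBR mice in 10 of the 18 sterol enzymes, between them in 5 and below them in 3, with a median of 0.25 above the mean of those 2 mice on the log2(FPKM + 1) scale. In the 8 fatty acid genes the same mouse was above both in 1, between them in 2 and below both in 5, with a median of -0.58.

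BBR mouse 2 was the highest of the 6 mice in 6 of the 8 fatty acid genes, with a median of 0.50 above the 6-mouse means, and it was the highest in 1 of the 7 mevalonate genes. This library also held the most adipocyte transcripts. All 12 adipocyte marker genes were highest in BBR mouse 2, and their summed FPKM was 15.08, 127.52 and 25.21 in BBR mice and 8.85, 16.92 and 46.69 in SASP mice. Adipsin (Cfd) stood at 51.04 FPKM in BBR mouse 2 and 12.71 in SASP mouse 3, and at 0 to 0.22 in the other 4. Adiponectin (Adipoq) stood at 6.85 and 1.84 FPKM in those 2 mice, at 0.09 in BBR mouse 1, and was listed at 0 in the other 3. Without these 2 libraries, a comparison chosen after the values were seen, 0 members were called in either direction. That fit called only 0.207% of all genes tested, so the count of 0 says little about the members. The members' median difference was -0.03, beside 0.05 for all genes tested. In SASP mouse 3, the library with the second highest adipocyte sum, the fatty acid genes had a median of -0.15 relative to the 6-mouse means. That mouse was the highest in 0 of these 8 genes. The part of fat tissue in the lipogenic values of BBR mouse 2 was not tested.

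**Figure D4:**
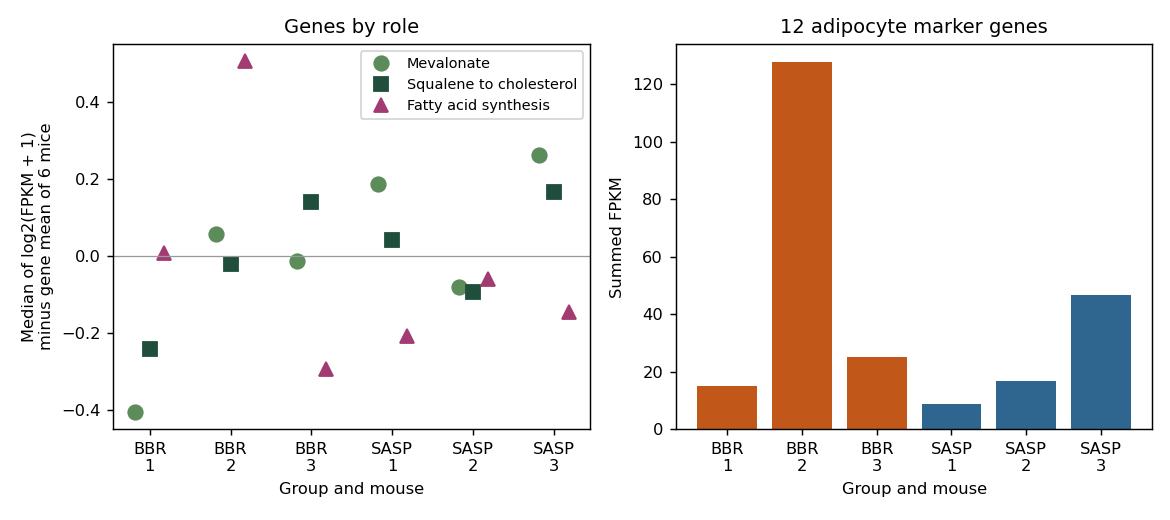
Left, median over the genes of each role of log2(FPKM + 1) minus the gene's 6-mouse mean (y axis) in each mouse (x axis). Right, FPKM summed over 12 adipocyte marker genes (y axis, from 0) in the same mice; BBR mouse 2 is highest in the fatty acid genes (0.50) and in the adipocyte sum (127.52).

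The other libraries and cell types differed between the groups as follows, and their part in the values above was not tested. BBR mouse 3 correlated with the other BBR mice across tested genes at r = 0.953 and 0.949, against 0.987 between those 2 and 0.982 to 0.989 among SASP mice. The 12 smooth muscle markers summed to 3579 to 8241 FPKM in BBR, highest in BBR mouse 3, and to 1010 to 2989 in SASP, with 12 of 12 differences positive and 0 called. The 13 colon epithelium markers, present in every mouse, summed to 10017 to 12324 FPKM in BBR and 10101 to 10300 in SASP (2 higher, 1 lower), so markers of the labelled tissue were detected in all 6 libraries. These close sums hold opposite orders, with BBR above SASP in 3 markers, below in 3 and overlapping in 7. Car1 was at 1200 to 2345 FPKM in BBR and 71.8 to 853 in SASP. Krt20 was at 245 to 551 in BBR and 623 to 899 in SASP. Over all genes tested, 37.9% had groups without overlap. All 10 proliferation genes had negative log2 differences, with a median of -1.56. Of these genes, 6 were called lower in BBR, where 5.04% of all genes tested were called lower. The 10 leukocyte markers summed to 25.2 to 39.0 FPKM in BBR and 39.7 to 76.5 in SASP (0 of 8 tested called). The 6 plasma cell markers had higher sums in BBR (198 to 263 FPKM) than in SASP (150 to 196). Single plasma cell markers did not share a direction, with 2 of 5 tested positive and 3 negative and a median of -0.02. Of these 5, 1 was called, Sdc1, which was higher in BBR (log2 difference 0.82, adjusted p = 0.0186, limma). Squamous epithelium and sebaceous gland markers had 0 of 2 and 0 of 1 tested called, with summed FPKM of 3.89 to 33.9 and 31.9 to 62.8 in BBR and 9.87 to 12.1 and 31.8 to 42.4 in SASP. Nearly all of the sebaceous sum was Fa2h (30.51 to 61.97 FPKM in BBR and 31.34 to 41.86 in SASP). The other sebaceous markers found were under 1 FPKM in every mouse. The highest squamous sum, in BBR mouse 3, was mostly Sprr1a (29.58 FPKM), while Krt5 was at most 0.25 FPKM in any mouse. In bulk tissue, fewer cells of a type and less RNA per cell cannot be told apart. Summed FPKM was 461163 to 487054 per library, with 11518 to 12307 genes at 1 FPKM or more.

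Genes next to the module in lipid metabolism were read from 7 lists. No gene was called in the list of SREBP proteases and sterol-regulated degradation (0 of 12 tested, where Sar1b, a GTPase of vesicle budding, had the smallest p, with a log2 difference of -0.23 and an adjusted p of 0.165). The isoprenoid branch, which uses mevalonate products for other ends, also had 0 of 11 called, with Pdss2, a subunit of the enzyme that makes the coenzyme Q tail, at -0.44 (adjusted p = 0.0613). The other 5 lists held 6 genes called higher and 3 called lower. Over the 7 lists, 9 of 74 tested genes were called (12.2%), near the 8.86% of all genes tested, so the calls below are values of single genes and not a result about lipid genes as a group.

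In the list of fatty acid elongation, desaturation and activation, 1 of 15 tested genes was higher and 2 were lower. Acsl3, an acyl-CoA synthetase of the endoplasmic reticulum and lipid droplets, stood at 126.30, 114.78 and 84.80 FPKM in BBR and at 39.65, 33.07 and 33.38 in SASP. Its means were 109 ± 21.4 and 35.4 ± 3.71 FPKM (SD, n = 3 each), and the log2 difference was 1.58 (SE 0.17, adjusted p = 0.00644). Its family member Acsl5 had the opposite order, with 37.87, 39.94 and 30.77 FPKM in BBR and 72.45, 59.07 and 59.87 in SASP (log2 difference -0.80, SE 0.14, adjusted p = 0.0224). Hsd17b12, the ketoacyl-CoA reductase of the elongation cycle in which ELOVL6 acts, fell from 91.5 ± 4.87 FPKM in SASP to 59.5 ± 9.88 in BBR (SD, n = 3 each, log2 difference -0.62, adjusted p = 0.0385). None of these 3 genes had overlapping groups.

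Genes of sterol storage and export held 3 of the calls. Soat1, which esterifies cholesterol for storage, stood at 25.70, 19.42 and 26.58 FPKM in BBR and at 11.58, 14.85 and 12.10 in SASP (log2 difference 0.84, SE 0.16, adjusted p = 0.0272). It was the 1 gene called of 10 tested for sterol uptake, esterification and movement, a list with 9 positive differences and a median of 0.44, where 60.8% of all genes tested were positive with a median of 0.10. Abcg5 and Abcg8, whose products form one transporter that exports sterols from the apical membrane, were the 2 genes called of 8 in the list of LXR receptors, efflux and oxysterol enzymes. Abcg5 stood at 34.05, 23.88 and 26.22 FPKM in BBR and at 11.98, 8.82 and 8.92 in SASP (log2 difference 1.41, SE 0.17, adjusted p = 0.00985). Abcg8 stood at 10.11, 7.31 and 7.03 FPKM in BBR and at 3.83, 2.53 and 2.47 in SASP (log2 difference 1.22, SE 0.20, adjusted p = 0.0193). The ratio of Abcg5 to Abcg8 was 3.45 ± 0.24 in BBR and 3.41 ± 0.25 in SASP (SD, n = 3 each) and overlapped between the groups.

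**Figure D5:**
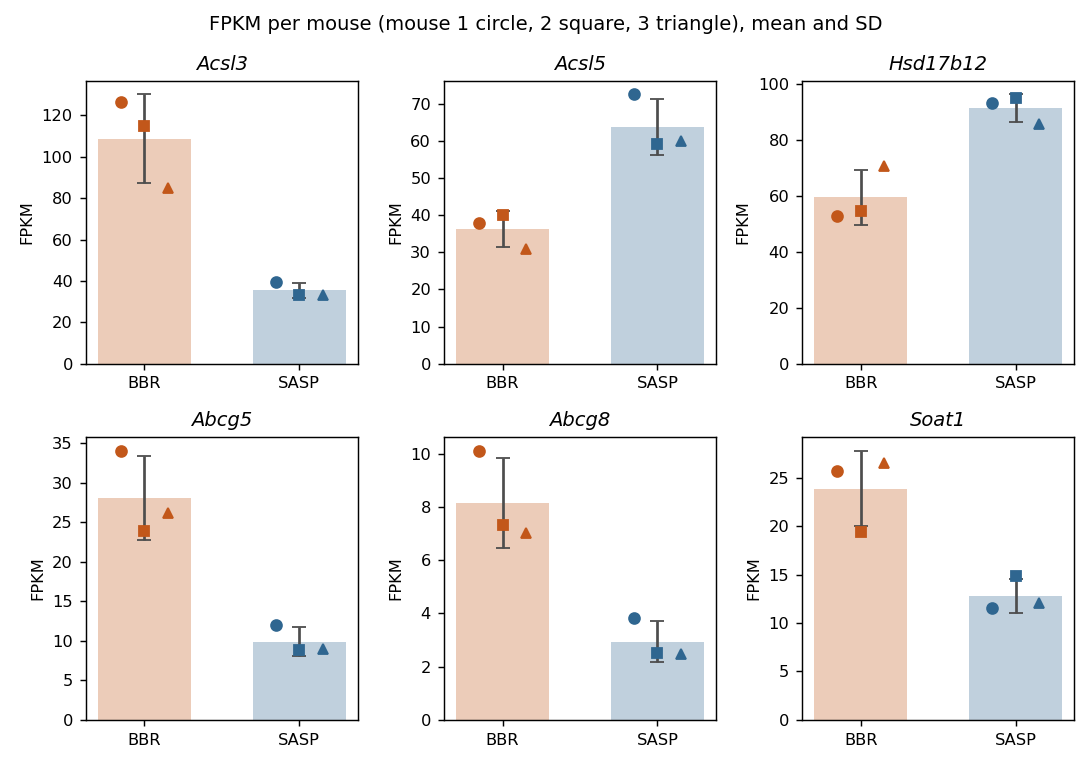
FPKM of 6 genes next to the module (y axes, each from 0) in the BBR and SASP groups (x axis), with 1 point a mouse, bars for the mean of 3 mice and error bars for the SD. Acsl3, Abcg5, Abcg8 and Soat1 are higher in all BBR mice, and Acsl5 and Hsd17b12 are lower in all BBR mice.

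For triglyceride and phospholipid assembly, 1 of 11 tested genes was higher and 1 lower. Lpin2, a phosphatidate phosphatase, stood at 5.67, 5.67 and 6.81 FPKM in BBR and at 11.21, 10.24 and 12.66 in SASP (log2 difference -0.81, adjusted p = 0.0199). The choline kinase Chka stood at 9.23, 9.71 and 6.77 in BBR and at 4.20, 4.20 and 4.92 in SASP (log2 difference 0.80, adjusted p = 0.0324). The list for AMPK, the energy-sensing kinase that phosphorylates acetyl-CoA carboxylase, held its subunit genes and Stk11. In this list 7 of 7 tested genes were positive, with a median of 0.31, beside the same 60.8% and 0.10 over all genes. Of these, 1 was called, the regulatory subunit Prkag2, with 12.49, 14.65 and 12.56 FPKM in BBR and 6.41, 9.45 and 8.48 in SASP (log2 difference 0.65, adjusted p = 0.0489).

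These 9 calls rested on 3 mice a group, and each kept its direction whichever mouse was left out. Without SASP mouse 3, where 0.428% of all genes tested passed the threshold, 0 of the 9 passed, with Acsl3 at an adjusted p of 0.0523 and Abcg5 at 0.0640. Acsl3 and Abcg5 stayed past the threshold without any other mouse. Soat1 was also lost without BBR mouse 1 (adjusted p = 0.0883) or SASP mouse 1 (0.125), and Abcg8 without BBR mouse 1 (0.0685), SASP mouse 1 (0.0545) or SASP mouse 2 (0.0584). The other 5 were lost without 4 or 5 of the 6 mice. All 9 passed without BBR mouse 3, in a fit that called 33.8% of all genes tested. With an epithelial score as covariate 0 of the 9 passed, and with a smooth muscle score Acsl3 alone did, in fits that called 0.0828% and 0.157% of all genes. Without BBR mouse 2 and SASP mouse 3 together, 0 of the 9 passed (0.207% of all genes). Hsd17b12, Chka and Prkag2 were also lost with no filter on low values (adjusted p = 0.0573, 0.0584 and 0.0768), Hsd17b12 with quantile normalization (0.0514), and Prkag2 with a pseudocount of 0.1 (0.0517) or no variance trend (0.0520). The labels do not say more about the mice than their group, and the p-values measure only the spread between these samples.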

How the data were processed

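RNA of the colorectum of 6 mice (3 BBR, 3 SASP) was sequenced. The authors deposited one table of FPKM values per gene and sample, with no counts, so the depth behind a value is unknown. The submitters' processing notes name Bowtie2 2.2.5, RSEM 1.2.12 and mm9. RSEM divides reads shared by similar genes, so close paralogs are uncertain. The labels name an Illumina library kit, while the study's methods describe rRNA depletion and another platform. Genes with FPKM of at least 1 in at least 3 samples were tested on log2(FPKM + 1) with limma 3.58.1 in R 4.3.3 (empirical Bayes with trend, two-sided, Benjamini-Hochberg over all genes, threshold 0.05). The pseudocount understates changes of low genes. The fit was tested on simulated data. No 2 samples shared more than 0.389% of values. All 32 members are named; of 7 pathway and 8 marker lists, at most the 3 called genes with the smallest p, or the gene with the smallest p, with further markers named after their values were seen. Members and lists were chosen with earlier results of these data known. Alternatives were other filters, pseudocounts, scalings, weights, covariates, thresholds and left-out mice. Promoters came from RefSeq on GRCm38.p6, matched by symbol and gene ID, since the files' build was not used for sequence. Certain genes of the pathway are not reported here.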

Additional observations from a re-analysis of the deposited data

How the results depend on the processing

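Of 511 values of the 32 members under the alternatives, 423 kept their direction and their side of the threshold, 27 were newly called, 14 lost the call of Elovl6 and 47 changed sign, 45 of them uncalled. The 2 called changes of sign were with array quality weights, where Fdft1 was at -0.28 (adjusted p = 0.0217) and Stard4 at 0.19 (adjusted p = 0.0490). Of 365 values of the 23 other named genes, 116 lost the call, 9 were newly called, 3 changed sign while uncalled and 237 kept direction and call.

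As reported, 1 member was higher and 0 were lower. The count of higher members was 0 with no filter on low values, a mean FPKM of at least 5, a pseudocount of 0.1, quantile normalization, median-ratio scaling, no variance trend, a smooth muscle or an epithelial score as covariate, an adjusted p under 0.01, and without BBR mouse 2 and SASP mouse 3 together (chosen after seeing the data). It was 7 with array quality weights and 4 at an unadjusted p of at most 0.05. The count of lower members was 2 with median-ratio scaling, 14 with array quality weights and 3 at an unadjusted p of at most 0.05. Over all genes tested, 13.9%, 59.0% and 31.8% passed under these settings, respectively. With array quality weights, 4636 of all genes were called higher and 2490 lower. Leaving out 1 mouse gave 0 to 5 higher and 0 to 2 lower members (Pmvk without SASP mouse 2). Without BBR mouse 3 there were 5 higher (Elovl6, Acss2, Dhcr7, Srebf2 and Scap) and 2 lower (Pmvk and Msmo1), 7 of 32 in a fit that called 33.8% of all genes. The members' median difference moved by more than 0.212, the pooled within-group SD of the members' median log2(FPKM + 1), only with the epithelial score as covariate. It was then 0.21, beside a median of 0.16 for all genes tested in that fit.

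Over all genes, 1069 were called (461 higher, 608 lower). The count was 608 with no filter, 1728 with quantile normalization, 1683 with median-ratio scaling (499 higher, 1184 lower), 7126 with array quality weights, 19 with the smooth muscle and 10 with the epithelial score as covariate, 109 at an adjusted p under 0.01, 3837 at an unadjusted p of at most 0.05, and 24 without BBR mouse 2 and SASP mouse 3. Leaving out 1 mouse gave 51 (without SASP mouse 3) to 4018 (without BBR mouse 3). The cause of these moves was not tested. No paired analysis was possible because the replicate numbers only follow accession order. With no counts, depth could not be weighed.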
